A study of Mus musculus with 71 samples.

Results

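The Apoe gene cluster of the mouse and the genes beside it were followed in sorted microglia from 6 disease models. The genes were taken by symbol: Apoe, Apoc1, Apoc2 and Apoc4, which encode apolipoproteins, and Tomm40, Clptm1, Nectin2 and Bcl3, which lie next to them, 8 of the 55413 gene symbols listed in each table. All 8 are listed in all 6 tables, and all 8 passed the filter on low values in every table, some only through their GFP-positive libraries. The study sorted microglia of Spp1-GFP reporter mice by GFP, where Spp1 encodes osteopontin, and sequenced 67 bulk libraries of 2000 cells. The series gives as its question how microglial reactivity varies between neurological disorders.

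In each model, GFP-positive microglia were set against GFP-negative microglia, and both against the third group of the model, control or contralateral microglia. The cuprizone mice ate the demyelinating diet for 5 weeks and gave 3 GFP-positive and 3 GFP-negative libraries, with 4 control libraries. The glioma mice were taken 21 days after inoculation with CT2a cells, a mouse glioma line, with 4 GFP-positive, 4 GFP-negative and 4 control libraries. The mice with experimental autoimmune encephalomyelitis (EAE) had recovered to clinical score 1 to 2, with 3, 3 and 3 libraries in the same order. In these 3 models the GFP groups were Spp1-GFP heterozygous, the controls were WT, and the mice were 8 to 10 weeks old. In the amyloid model the GFP groups were heterozygous for both 5xFAD and Spp1-GFP and the controls were WT, with 4, 4 and 4 libraries from mice of 7 months. Strokes were made at postnatal day 6 (P6 stroke, collected at day 9) and day 28 (P28 stroke, collected at day 35), with 4 GFP-positive and 4 GFP-negative libraries of stroke cortex and 4 libraries of contralateral cortex each. All stroke groups were Spp1-GFP heterozygous. Where the controls are WT, a GFP group differs from them in disease, reporter allele and gate at once, and these cannot be told apart. The labels do not say which libraries came from separate animals, so the p-values measure the spread between libraries, which may be technical.

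Apolipoprotein E is the main lipid carrier made inside the brain, where astrocytes and reactive microglia secrete it as particles that take cholesterol and phospholipid from one cell to another through receptors of the LDL receptor family. Apoc1, Apoc2 and Apoc4 are small apolipoproteins that ride on lipoproteins, and Apoc2 is the cofactor of lipoprotein lipase. Apoe, Apoc1, Apoc4 and Apoc2 stand side by side in one cluster, which in macrophages is under the control of liver X receptors and shared downstream enhancers. The neighbours have other duties: Tomm40 is the channel of the outer mitochondrial membrane through which proteins enter, Clptm1 is a membrane protein that holds GABA A receptors back in the endoplasmic reticulum, Nectin2 is a cell adhesion molecule and a ligand of lymphocyte receptors, and Bcl3 is a nuclear member of the I-kappa-B family that binds the p50 and p52 subunits of NF-kB.

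All 8 genes are transcribed from the minus strand of chromosome 7. In GENCODE release M21 (GRCm38), Apoe spans 19696109 to 19699188. On the side after its end lie Apoc1 (19689481 to 19692660), Apoc4 (19678083 to 19681479), Apoc2 (19671579 to 19677941) and Clptm1 (19631571 to 19665033). On the side before its start lie Tomm40 (19701313 to 19715438), Nectin2 (19716644 to 19750483) and Bcl3 (19808462 to 19822770). A readthrough gene model on the same strand, Gm44805, covers parts of Apoc4 and Apoc2, so reads could be split between them. It reached 3.43 TPM at most and was above 0 in 3 libraries. Antisense models overlap Tomm40 and Nectin2 (Gm20512, at most 1.02 TPM) and Bcl3 (Gm16174, at most 2.25 TPM, and Gm16175, listed at 0 in every library). Whether reads were counted by strand is not stated in the labels.

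The promoter windows of 4 of the genes are shown because neighbours differ in how their transcripts vary: Apoe, Apoc4 and Apoc2 between gates and models, and Tomm40 little. RefSeq windows (GRCm38.p6, minus strand, 250 bases before to 50 after an annotated start, written 5′ to 3′) matched 7 of the 8 genes, with 9 windows in all. Capitals mark matches to the motifs named after the sequences.
Apoe, chr7:19699139-19699438: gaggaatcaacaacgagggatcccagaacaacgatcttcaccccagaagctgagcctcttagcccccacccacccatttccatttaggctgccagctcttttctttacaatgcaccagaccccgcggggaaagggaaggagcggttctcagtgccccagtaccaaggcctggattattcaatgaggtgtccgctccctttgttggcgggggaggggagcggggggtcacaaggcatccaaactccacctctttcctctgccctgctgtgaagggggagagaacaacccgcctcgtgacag
Apoc4, chr7:19681411-19681710: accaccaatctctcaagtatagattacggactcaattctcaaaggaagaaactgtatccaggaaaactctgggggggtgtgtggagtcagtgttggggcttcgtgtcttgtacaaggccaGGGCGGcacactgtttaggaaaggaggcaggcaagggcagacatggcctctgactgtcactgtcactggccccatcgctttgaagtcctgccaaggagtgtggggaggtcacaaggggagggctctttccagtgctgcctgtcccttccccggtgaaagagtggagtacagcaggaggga
Apoc2, chr7:19677892-19678191: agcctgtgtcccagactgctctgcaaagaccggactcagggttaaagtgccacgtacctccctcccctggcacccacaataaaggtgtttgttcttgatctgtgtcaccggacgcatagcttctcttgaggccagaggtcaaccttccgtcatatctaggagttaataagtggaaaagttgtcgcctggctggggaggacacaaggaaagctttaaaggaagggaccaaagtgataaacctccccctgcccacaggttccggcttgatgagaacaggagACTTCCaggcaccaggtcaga
Tomm40, chr7:19715380-19715679: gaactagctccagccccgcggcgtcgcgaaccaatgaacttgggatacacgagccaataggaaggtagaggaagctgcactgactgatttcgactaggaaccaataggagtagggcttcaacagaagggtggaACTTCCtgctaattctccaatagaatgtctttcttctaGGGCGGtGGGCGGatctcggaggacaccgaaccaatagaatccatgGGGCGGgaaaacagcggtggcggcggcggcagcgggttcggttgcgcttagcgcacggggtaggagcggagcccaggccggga
The motifs searched on both strands were the E-box CACGTG, the AP-1 site TGANTCA, the PU.1 core GGAAGT, a direct repeat of AGGTCA with 4 bases between the copies, which is the form liver X receptors bind, and the GC box GGGCGG. None of the 5 was in any of the 3 annotated Apoe windows. The GC box was found 3 times in each window of Tomm40, Clptm1, Nectin2 and Bcl3 and 1 time in that of Apoc4, and it is in 35.7% of all 32851 windows. The PU.1 core was found 1 time in each window of Apoc2, Tomm40, Nectin2 and Bcl3, and it is in 23.8% of all windows. No window of the cluster held the E-box, the AP-1 site or the spaced repeat, which are in 7.15%, 7.81% and 0.0152% of all windows. The share of G and C was 57.7% in the first Apoe window, 55% in Apoc4 and 52.7% in Apoc2, against 58% in Tomm40, 62% in Clptm1, 62.7% in Nectin2 and 69% in Bcl3. The median of all windows is 52.7%.

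Levels are given in TPM, transcript abundances scaled for transcript length to one total per library, and differences as differences of mean log2(TPM + 1), which understate the change of genes near 0. A gene is called when limma's adjusted p is under 0.05. The deposited tables hold no read counts, so the depth is unknown, and 13024 to 17865 symbols were above 0 per library. Spp1, the gene behind the gate, was higher in every GFP-positive library than in every GFP-negative library of its model. It was at 656 to 773 TPM against 2.14 to 6.56 TPM in the cuprizone mice. In EAE it was at 859 to 1029 TPM against 61.6 to 130 TPM, and in glioma at 224 to 945 TPM against 29.4 to 92.3 TPM. The P6 stroke had 240 to 784 TPM against 5.97 to 91.6 TPM, and the P28 stroke 308 to 3867 TPM against at most 41.6 TPM. In 5xFAD mice it was at 395 to 1253 TPM against 11.8 to 24.1 TPM. All 10 microglial markers checked averaged at least 1 TPM in each of the 18 groups. The median of their summed level was 31470 TPM in GFP-positive, 51977 TPM in GFP-negative and 57182 TPM in control libraries of the cuprizone mice, and 6026, 12213 and 44933 TPM in those of glioma, where both gates overlapped. The median difference of all tested genes between GFP-positive and GFP-negative libraries lay between -0.30 and 0.05, and rescaling by median of ratios brought it to between -0.01 and 0.01. Of the genes called, 12.5% to 36.6% were higher in GFP-positive microglia over the 6 models, and 43.7% to 68.8% after that rescaling. Groups that do not overlap are common. In 2.47% to 7.90% of all tested genes every GFP-positive library was above every GFP-negative one, and in 8.02% to 22.7% below. Wholly above the third group were 1.74% to 14.0% of genes in GFP-negative and 1.81% to 15.1% in GFP-positive microglia.

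In GFP-positive against GFP-negative microglia, the apolipoprotein genes of the cluster accounted for all 16 calls in the upward direction, and their neighbours for both calls in the downward direction. The upward calls include genes that passed the filter only through their GFP-positive libraries. Apoe was higher in GFP-positive microglia in each of the 6 models. In the cuprizone mice 4 of the 8 genes rose (Apoe, Apoc1, Apoc2 and Apoc4) and 2 fell (Tomm40 and Nectin2), where 10.2% of all tested genes were called, 2.7% upward and 7.49% downward. In the P28 stroke the same 4 apolipoprotein genes rose, where 29% of genes were called, 5.86% upward and 23.2% downward. In 5xFAD mice Apoe, Apoc1 and Apoc4 rose, where 8.16% of genes were called, 1.02% upward and 7.14% downward. In glioma Apoe and Apoc4 rose, where 6.67% were called, 0.927% upward and 5.75% downward. In the P6 stroke Apoe and Apoc2 rose, where 3.36% were called, 1.03% upward and 2.33% downward. In EAE 1 gene rose, Apoe, where 0.688% were called, 0.252% upward and 0.437% downward. The median difference of the 4 apolipoprotein genes was 0.93 in glioma, 1.09 in EAE, 1.87 in 5xFAD mice and 1.12 in the P6 stroke, beside medians of -0.15, 0.05, -0.29 and -0.12 over all tested genes of these models. No such median is given for the other models, where a gene was at 0 in all GFP-negative libraries.

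**Figure D1:**
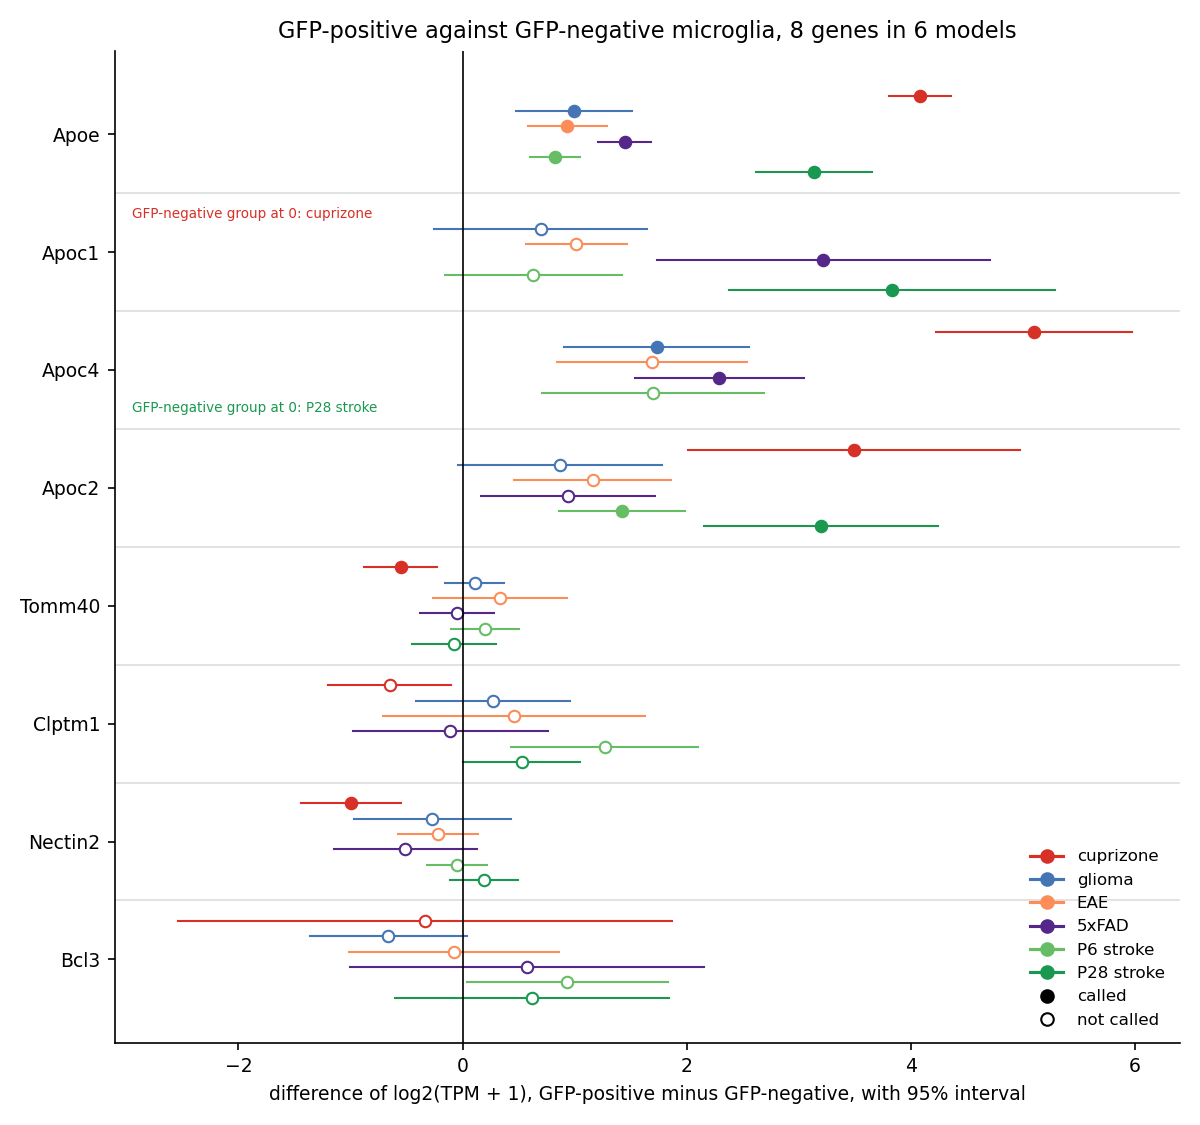
Difference of mean log2(TPM + 1) between GFP-positive and GFP-negative microglia (points, with 95% intervals as lines) for the 8 genes, 1 colour per model, filled where limma's adjusted p was under 0.05. The apolipoprotein genes Apoe, Apoc1, Apoc4 and Apoc2 lie to the right of 0, while Tomm40, Clptm1, Nectin2 and Bcl3 lie around it, and no difference is drawn for Apoc1 in the cuprizone mice and Apoc4 in the P28 stroke, whose GFP-negative libraries were all at 0.

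Apoe was the most abundant transcript of the table in every GFP-positive library of 5 models, and it ranked between 2 and 4 in those of the P28 stroke. It also ranked 1 in every GFP-negative library of EAE and the P6 stroke. In GFP-negative libraries it ranked 1 to 5 in glioma, 3 in 5xFAD mice, 10 to 17 in the cuprizone mice and 22 to 51 in the P28 stroke. On the contralateral side of the P6 stroke it ranked 1 to 4. Cuprizone mice had it at 108321, 100590 and 107449 TPM in the GFP-positive libraries, 6241, 7419 and 5234 TPM in the GFP-negative libraries, and 3329, 3604, 4249 and 4761 TPM in the controls. No GFP-positive library came near a GFP-negative one, and the GFP-negative libraries lay just above the controls. That is 10.1 to 10.8% of all transcripts in GFP-positive microglia and 0.523 to 0.742% in GFP-negative microglia, a difference of 4.08 on the log2 scale (SE 0.13, limma adjusted p = 9.39e-10). After the P28 stroke it made 30923, 31974, 21235 and 19580 TPM in GFP-positive libraries, 3705, 4303, 2456 and 1758 TPM in GFP-negative libraries, and 768, 894, 822 and 1036 TPM on the contralateral side. The 3 groups did not overlap there, and the difference between GFP-positive and GFP-negative microglia was 3.14 (SE 0.24, limma adjusted p = 6.89e-06).

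The other 4 models had Apoe high in both gates. In 5xFAD mice it made 105904, 89536, 79612 and 90050 TPM in GFP-positive libraries, 37012, 37929, 31531 and 27822 TPM in GFP-negative libraries, and 2382, 3278, 2898 and 2882 TPM in controls. Each group stood clear of the next, with 1.45 between GFP-positive and GFP-negative microglia (SE 0.11, limma adjusted p = 2.19e-06) and 3.55 between GFP-negative and control microglia (SE 0.11, limma adjusted p = 2.26e-11). In EAE it made 73632, 72740 and 76848 TPM in GFP-positive libraries, 47156, 28714 and 43561 TPM in GFP-negative libraries, and 3689, 4112 and 4621 TPM in controls. The GFP-positive libraries were close to each other and above all GFP-negative ones, which were spread more widely. In glioma it made 28222, 28917, 24314 and 30474 TPM in GFP-positive libraries, 11971, 12349, 11401 and 22525 TPM in GFP-negative libraries, and 2727, 2049, 1297 and 1647 TPM in controls. GFP-negative library 4 stood nearer to the GFP-positive libraries than to the other 3 of its group. After the P6 stroke it made 38692, 35431, 44690 and 47355 TPM in GFP-positive libraries, 22216, 21962, 24325 and 24667 TPM in GFP-negative libraries, and 12413, 14034, 17277 and 14388 TPM on the contralateral side. These groups did not overlap, but their steps were small, and the contralateral microglia of the young mice held more Apoe than the control or contralateral microglia of any other model.

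The calls of the smaller Apoe differences in glioma and EAE depended on single libraries and settings. The difference between GFP-positive and GFP-negative microglia was 1.00 in glioma (SE 0.24, limma adjusted p = 0.0272), and without GFP-negative library 1, 2 or 3 or GFP-positive library 2 or 4 it lay between 0.90 and 0.98 with an adjusted p of 0.0578 to 0.0858. With no filter on low values its adjusted p was 0.1003. In EAE it was 0.93 (SE 0.16, limma adjusted p = 0.0315), and without any 1 of the GFP-positive or control libraries, or without GFP-negative library 3, it lay between 0.91 and 1.02 with an adjusted p of 0.0557 to 0.177. In EAE it also lost its call under median-of-ratios rescaling (0.86, limma adjusted p = 0.259), with no filter (0.189), with only the 2 groups in the fit (0.108) and without a trend (0.176). Its value after the P6 stroke was 0.83 (SE 0.10, limma adjusted p = 0.00328) and kept its call without any 1 library.

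**Figure D2:**
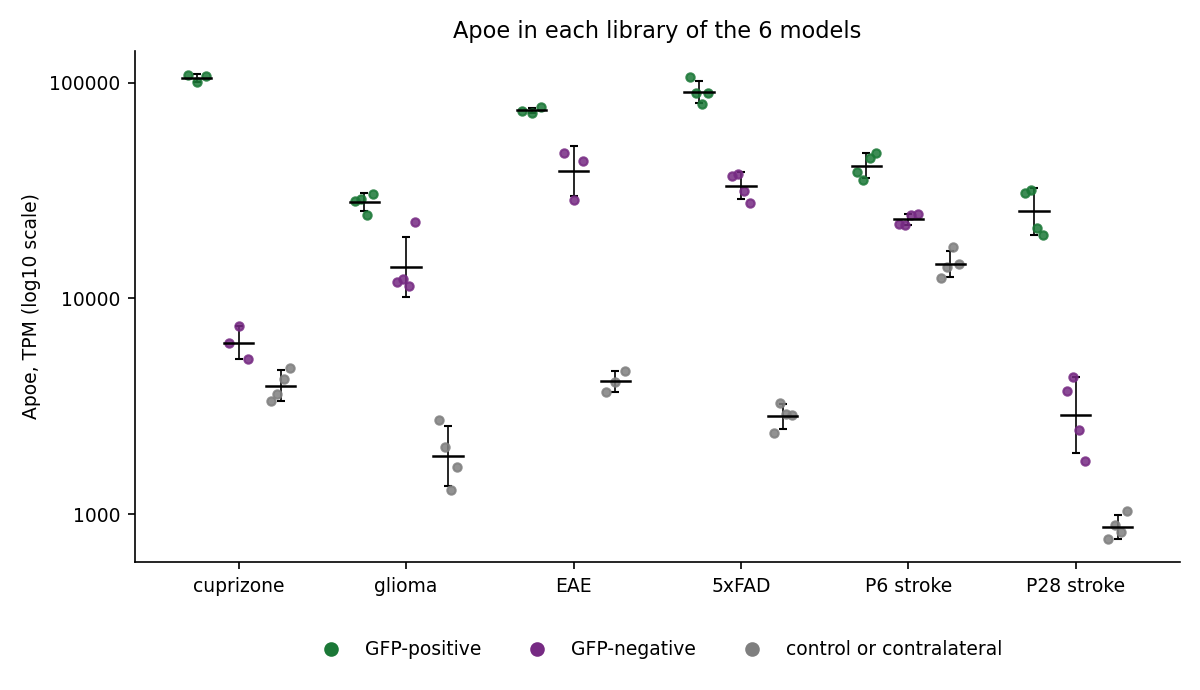
Apoe in TPM (log10 axis) in each library (points) of the 6 models, with the mean and SD of each group on that scale as a bar and whiskers, GFP-positive, GFP-negative and control or contralateral from left to right. In the cuprizone mice and the P28 stroke the wide step is between GFP-positive and GFP-negative microglia, while in glioma, EAE and 5xFAD mice it is between GFP-negative and control microglia.

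Against the third group, GFP-negative microglia carried much of the Apoe difference in 3 models. Among the 8 genes, 4 rose and 1 fell in GFP-negative against control microglia in glioma, where 52.8% of all tested genes were called, 16% upward and 36.8% downward. In EAE 5 rose, where 30.3% were called, 5.88% upward and 24.5% downward. In 5xFAD mice 2 rose, where 12.7% were called, 3.57% upward and 9.12% downward. Apoe alone rose in the P6 stroke, where 0.274% were called, 0.0914% upward and 0.183% downward. Apoe alone also rose in the P28 stroke, where 0.238% were called, 0.217% upward and 0.021% downward. In the cuprizone mice none of the 8 passed, where 0.163% of genes were called, 0.148% upward and 0.0155% downward. At an unadjusted p under 0.05 1020 of 12877 genes would pass in that comparison, and the difference of Apoe was 0.66 (SE 0.12, limma adjusted p = 0.0556), which was called with a sex term (0.85, adjusted p = 0.0105), after median-of-ratios rescaling (0.70, adjusted p = 0.046), with a filter at 5 TPM (adjusted p = 0.037) and without control library 4 or GFP-negative library 3 (0.75 and 0.79, adjusted p = 0.0146 and 0.0321). By their Xist and Y-linked transcripts, the controls of that model were 2 female and 2 male libraries, and its GFP groups were male.

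Apoe rose by 2.91 in glioma (SE 0.24, limma adjusted p = 1.36e-06) and by 3.24 in EAE (SE 0.16, limma adjusted p = 5.07e-07) in GFP-negative against control microglia. In the P6 stroke it rose by 0.69 against the contralateral side (SE 0.10, limma adjusted p = 0.0185), and without contralateral library 1, 2 or 4 or GFP-negative library 2 or 4 the adjusted p was 0.0544 to 0.0807, with no filter 0.135 and without a trend 0.0893. In the P28 stroke it rose by 1.72 (SE 0.24, limma adjusted p = 0.02), and without contralateral library 1 or 2 or GFP-negative library 1 or 2 the adjusted p was 0.0539 to 0.0759, with no filter 0.1001, with 2 groups in the fit 0.06 and without a trend 0.0637. In bulk libraries, more cells with a high level and more RNA per cell cannot be told apart.

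GFP-positive microglia against the third group gave 25 calls upward and 1 downward among the 48 comparisons of the 8 genes. They were 4 upward and 1 downward in the cuprizone mice (18.2% of all genes called, 4.5% upward and 13.7% downward), 5 upward in glioma (63.7%, 17.7% upward and 45.9% downward), 4 in EAE (29.8%, 6.91% upward and 22.9% downward), 3 in 5xFAD mice (40%, 6.11% upward and 33.9% downward), 4 in the P6 stroke (3.11%, 0.556% upward and 2.56% downward) and 5 in the P28 stroke (36%, 7.56% upward and 28.4% downward). Apolipoprotein genes made 23 of these 25, and Apoc2 in 5xFAD mice was the one that did not pass (0.95, SE 0.37, limma adjusted p = 0.0507; 0.0315 to 0.0437 without control library 2, GFP-negative library 1 or 3 or GFP-positive library 4). Median-of-ratios rescaling gave 1.60 for it (limma adjusted p = 0.005), and it was also called with a filter at 5 TPM, without Apoe in the total and with 2 groups in the fit (adjusted p = 0.0323 to 0.0402). In the P6 stroke the calls of Apoc1 (2.14, SE 0.37, limma adjusted p = 0.0131) and Apoc4 (2.29, SE 0.46, limma adjusted p = 0.0259) were lost without GFP-positive library 3 or 4, with adjusted p-values of 0.0515 and 0.0516 for Apoc1 and 0.0816 and 0.0694 for Apoc4. For Apoc4 the call was also lost without contralateral library 1, 2 or 4 (limma adjusted p = 0.0789 to 0.0809), with no filter (0.0736), with 2 groups in the fit (0.0612) and without a trend (0.0545). Apoe was higher by 4.74 in the cuprizone mice, 3.91 in glioma, 4.17 in EAE, 5.00 in 5xFAD mice, 1.52 in the P6 stroke and 4.85 in the P28 stroke, with limma adjusted p-values between 1.25e-13 and 1.37e-05. The GFP-negative part of that difference was 3.55 of 5.00 in 5xFAD mice and 0.66 of 4.74 in the cuprizone mice.

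Set in order across the tables, which were normalised separately, the group means of Apoe ran from 105453 TPM in GFP-positive microglia of cuprizone mice through 91275 TPM in those of 5xFAD mice and 74407 TPM in those of EAE to 41542 TPM in those of the P6 stroke. GFP-negative microglia of EAE (39810 TPM) and 5xFAD mice (33573 TPM) came next, above the GFP-positive microglia of glioma (27982 TPM) and of the P28 stroke (25928 TPM). The GFP-negative microglia of the P6 stroke (23292 TPM) and glioma (14561 TPM) and the contralateral microglia of the P6 stroke (14528 TPM) followed. At the lower end were the GFP-negative microglia of cuprizone mice (6298 TPM), the controls of EAE (4141 TPM) and cuprizone mice (3986 TPM), the GFP-negative microglia of the P28 stroke (3055 TPM), the controls of 5xFAD mice (2860 TPM) and glioma (1930 TPM), and the contralateral microglia of the P28 stroke (880 TPM). Libraries of neighbouring groups in this order overlapped, except between 5xFAD and EAE GFP-positive, between EAE and P6 stroke GFP-positive, on both sides of the GFP-negative microglia of cuprizone mice, and between the glioma controls and the contralateral microglia of the P28 stroke.

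Other cells that make Apoe were looked for by lists of 10 markers each. Of the astrocyte list, 3 genes could be tested in the cuprizone mice and 3 in the P28 stroke, the models with the largest Apoe differences. Slc1a3, a glutamate transporter, made up most of the list's summed level and fell in both, to 101.4 TPM in GFP-positive microglia against 139.9 TPM in GFP-negative microglia of the cuprizone mice (means; limma adjusted p = 0.0439) and to 68.9 TPM in GFP-positive against 101.5 TPM in GFP-negative microglia of the P28 stroke (adjusted p = 0.0028). The medians over the tested genes went the other way, at 1.18 and 0.56. Gfap and Aldh1l1, defining genes of astrocytes, averaged 0.44 and 1.02 TPM in GFP-positive microglia of the cuprizone mice against 0.18 and 0.10 TPM in GFP-negative microglia, and 0.52 and 1.40 TPM in GFP-positive microglia of the P28 stroke against 0.30 and 0.57 TPM in GFP-negative microglia. In GFP-negative against control microglia of glioma 5 of 7 tested astrocyte genes rose and 1 fell, with a median of 1.40. Of all tested genes in that comparison, 16% rose and 36.8% fell.

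Between the gates of the P28 stroke 5.86% of all tested genes were called upward and 23.2% downward. Of the markers of border-associated macrophages, 4 of 7 tested genes rose there and 1 fell, with a median of 2.26. Those that rose included Folr2, a folate receptor (30.3 TPM in GFP-positive microglia against 3.17 TPM in GFP-negative microglia, means), Siglec1, a sialic acid receptor (30.0 TPM against 5.55 TPM), and Ms4a7 (7.48 TPM against 0.09 TPM). The fall was that of Stab1, a scavenger receptor (294 TPM in GFP-positive microglia against 511 TPM in GFP-negative microglia), which held most of the list's summed level. Between the gates of the cuprizone mice Stab1 alone was called, downward, among 9 tested genes. Against the controls of that model, 7 of 9 fell in GFP-positive microglia (13.7% of all genes) and 1 of 9 in GFP-negative microglia (0.0155%), and none rose. In GFP-negative against control microglia, 3 of 8 tested genes rose in glioma and 3 of 6 in EAE, with 1 fall in each. Of all tested genes, 16% rose and 36.8% fell in glioma, and 5.88% rose and 24.5% fell in EAE.

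The summed level of the markers of monocyte-derived cells differed between groups in all models but the P6 stroke. It was 963 to 2831 TPM in GFP-positive libraries of glioma, 2320 to 5652 TPM in GFP-negative libraries, and 43.3 to 102 TPM in controls. In EAE it was 130 to 137 TPM in GFP-positive libraries, 95.6 to 179 TPM in GFP-negative libraries, and 8.08 to 14.6 TPM in controls. The P28 stroke had 76.95 to 212 TPM in GFP-positive libraries, 20.7 to 28.4 TPM in GFP-negative libraries, and 9.09 to 19.3 TPM on the contralateral side. The cuprizone mice had sums of 30.1 to 48.6 TPM in GFP-positive libraries, 11.4 to 16.9 TPM in GFP-negative libraries, and 13.2 to 30.3 TPM in controls. In 5xFAD mice the sum was 22.0 to 27.2 TPM in GFP-positive, 19.9 to 48.3 TPM in GFP-negative and 40.4 to 87.2 TPM in control libraries. There 4 of 6 tested genes fell in GFP-positive against control microglia (33.9% of all genes). Between gates, 3 of 6 tested genes rose in the P28 stroke (5.86% of all genes) and 2 of 5 in the cuprizone mice (2.7%). In glioma 4 of 10 fell between the gates (5.75% of all genes) and none rose. In EAE 1 of 7 rose (0.252%) and 1 fell (0.437%), in the P6 stroke 1 of 5 fell (2.33%), and in 5xFAD mice none of 6 was called. Against controls, all 10 rose in GFP-negative microglia of glioma (16% of all genes), and 4 of 7 in those of EAE (5.88%). Fn1, which encodes fibronectin, rose in both and made up much of the sum in the P28 stroke, while Ly6c2 was at 0 in all GFP-positive libraries of the cuprizone mice. In glioma Ly6c2 was at 229 to 1214 TPM in GFP-positive, 492 to 1883 TPM in GFP-negative and at most 1.62 TPM in control libraries. The part of these cell types in the Apoe values was not tested.

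Between the gates Apoc1 had the same direction as Apoe at far lower levels, and it was at or near 0 in most control groups. In GFP-negative against control microglia its mean was lower in 5xFAD mice (0.565 against 2.03 TPM) and the cuprizone mice (0 against 0.65 TPM), without a call, while the mean of Apoe was higher. Cuprizone mice had 73.9, 66.96 and 82.8 TPM of it in GFP-positive libraries, and it was listed at 0 in all 3 GFP-negative libraries and in 3 of 4 controls, the other control having 2.59 TPM. Every GFP-positive library was therefore far above the others (limma adjusted p = 1.06e-05), and no fold is given against a group at 0. Apoc1 passed the filter there only through these libraries, so that p-value is no support for the rise. After the P28 stroke it made 66.3, 71.5, 12.7 and 6.66 TPM in GFP-positive libraries, 1.79, 0, 3.44 and 0 TPM in GFP-negative libraries and 0 in all contralateral libraries. The GFP-positive libraries fell into a high and a low pair, the same pairs as for Apoe, and both lay above the GFP-negative ones (3.83, SE 0.68, limma adjusted p = 0.00109). In 5xFAD mice it made 16.7, 5.04, 20.4 and 9.78 TPM in GFP-positive libraries, 2.26 TPM in 1 GFP-negative library with 0 in the other 3, and 8.12 TPM in 1 control library with 0 in the other 3 (3.22, SE 0.70, limma adjusted p = 0.0094 against GFP-negative). The single control library with the transcript lay within the range of the GFP-positive libraries.

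In glioma and EAE the Apoc1 step lay between GFP-negative and control microglia instead. In EAE it made 114, 127 and 89.4 TPM in GFP-positive libraries, 53.7, 48.4 and 58.7 TPM in GFP-negative libraries, and 0 in all 3 controls. The 3 groups did not overlap, but the difference between the gates did not pass (1.01, SE 0.20, limma adjusted p = 0.0602), while GFP-negative against control microglia did (adjusted p = 4.73e-08). In glioma it made 30.2, 15.7, 22.5 and 29.0 TPM in GFP-positive libraries, 7.78, 12.9, 8.11 and 46.6 TPM in GFP-negative libraries, and 0 in all 4 controls. The 2 gates overlapped through GFP-negative library 4, which also held the most Apoe of its group (0.70, SE 0.44, limma adjusted p = 0.381); without that library the difference was 1.25 (adjusted p = 0.0274). After the P6 stroke it made 76.4 to 121 TPM in GFP-positive libraries, 42.2 to 75.8 TPM in GFP-negative libraries and 8.87 to 45.1 TPM on the contralateral side, and the difference between the gates was 0.63 (SE 0.37, limma adjusted p = 0.328).

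Apoc4 was at or near 0 in every control and contralateral group. It made 56.7, 25.1 and 32.1 TPM in GFP-positive libraries of the cuprizone mice, against 0, 0.23 and 0 TPM in GFP-negative libraries and 0 in all controls. Every GFP-positive library was far above 0.23 TPM, the highest value outside that group (5.10, SE 0.41, limma adjusted p = 1.07e-05). Those libraries alone took Apoc4 past the filter. In the P28 stroke it made 11.2, 5.55, 13.5 and 4.07 TPM in GFP-positive libraries and was listed at 0 in all 4 GFP-negative and all 4 contralateral libraries (limma adjusted p = 4.1e-05). There too Apoc4 passed the filter only through the GFP-positive libraries, so that p-value is no support for the rise. In 5xFAD mice it made 123, 58.3, 45.1 and 91.2 TPM in GFP-positive libraries, 18.2, 15.4, 7.92 and 18.4 TPM in GFP-negative libraries, and 0 in all controls. All 3 groups stood apart, with 2.29 between the gates (SE 0.35, limma adjusted p = 0.000821) and an adjusted p of 3.94e-06 for GFP-negative against control microglia.

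In EAE Apoc4 made 36.6, 40.2 and 29.4 TPM in GFP-positive libraries, 16.4, 4.83 and 12.8 TPM in GFP-negative libraries, and 0 in all controls. The gates did not overlap, but their difference did not pass (1.69, SE 0.38, limma adjusted p = 0.0924), except without GFP-negative library 1 (2.01, adjusted p = 0.0328). In glioma it stayed low, with 6.99, 2.64, 4.59 and 3.74 TPM in GFP-positive libraries, 2.13, 0, 0 and 1.01 TPM in GFP-negative libraries, and 0 in all controls (1.73, SE 0.38, limma adjusted p = 0.0187; 0.0633 without GFP-negative library 2, 0.0531 if GFP-positive library 3 was left out, 0.0574 with a pseudocount of 0.1 and 0.0606 with 2 groups in the fit). After the P6 stroke it made 3.01, 2.30, 11.4 and 7.31 TPM in GFP-positive libraries, 1.51, 1.53, 0.92 and 0 TPM in GFP-negative libraries, and 1.4 TPM in 1 contralateral library with 0 in the other 3. That difference between the gates was 1.70 (SE 0.46, limma adjusted p = 0.0585), and 1.90 without GFP-positive library 1 (adjusted p = 0.0343).

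Apoc2 was above 0 in at least 1 library of every control or contralateral group. Cuprizone mice had 37.9, 34.1 and 42.6 TPM of it in GFP-positive libraries, 4.13, 7.11 and 0 TPM in GFP-negative libraries, and 2.67, 2.42, 0 and 2.52 TPM in controls. All GFP-positive libraries were higher than all others (3.49, SE 0.69, limma adjusted p = 0.00602), though with a pseudocount of 0.1 the adjusted p was 0.0685. After the P28 stroke it made 34.2, 34.5, 15.4 and 10.1 TPM in GFP-positive libraries, 2.56, 3.07, 0 and 1.2 TPM in GFP-negative libraries, and 0, 0, 0 and 1.14 TPM on the contralateral side (3.20, SE 0.49, limma adjusted p = 0.0004). After the P6 stroke it made 28.2, 30.9, 40.1 and 17.8 TPM in GFP-positive libraries, 11.9, 13.2, 7.87 and 7.60 TPM in GFP-negative libraries, and 6.49, 4.65, 7.01 and 9.62 TPM on the contralateral side. Its GFP-positive libraries lay above all others (1.42, SE 0.26, limma adjusted p = 0.0183; 1.26 and 0.0787 without GFP-positive library 3, and 0.0587 with no filter).

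Glioma held the highest Apoc2, with 140, 162, 200 and 161 TPM in GFP-positive libraries, 89.5, 65.2, 97.8 and 111 TPM in GFP-negative libraries, and 17.6, 3.83, 2.11 and 9.32 TPM in controls. The gates did not overlap, but their difference did not pass (0.87, SE 0.42, limma adjusted p = 0.249; 0.0357 with only the 2 groups in the fit), while GFP-negative against control microglia did (3.62, SE 0.42, adjusted p = 2.21e-05). EAE was alike, with 77.5 to 99.6 TPM in GFP-positive, 36.4 to 42.3 TPM in GFP-negative and 1.21 to 4.96 TPM in control libraries, and differences of 1.16 (SE 0.32, limma adjusted p = 0.186; 0.0451 with 2 groups in the fit) and 3.53 (SE 0.32, adjusted p = 3.84e-05). In 5xFAD mice it made 30.6, 33.9, 22.0 and 16.1 TPM in GFP-positive libraries, 25.2, 15.0, 6.88 and 8.56 TPM in GFP-negative libraries, and 13.3, 17.0, 9.54 and 10.6 TPM in controls. GFP-positive against GFP-negative microglia did not pass (0.94, SE 0.37, limma adjusted p = 0.131; 1.27 and 0.0476 without GFP-negative library 1). GFP-negative and control libraries overlapped throughout (0.00, SE 0.37, limma adjusted p = 0.999, 95% interval -0.78 to 0.78). Apoe and Apoc4 had both risen in that same comparison, and Apoc1 had not (-0.37, SE 0.70, limma adjusted p = 0.782, 95% interval -1.86 to 1.11).

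**Figure D3:**
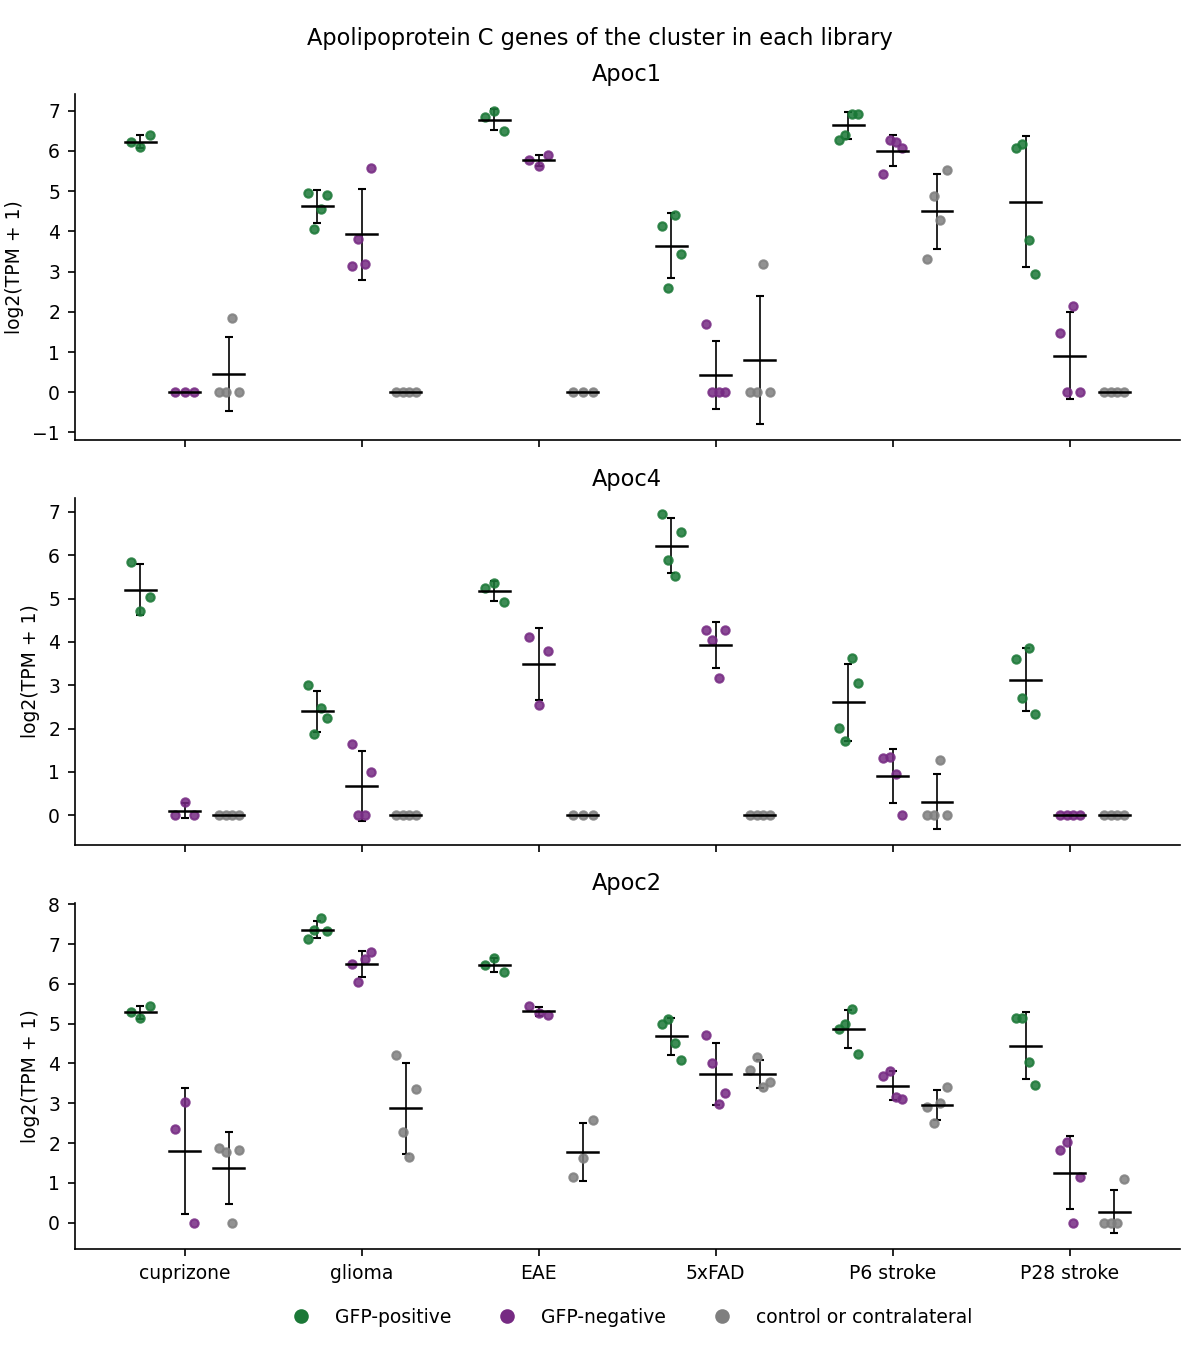
Apoc1, Apoc4 and Apoc2 as log2(TPM + 1) in each library (points) of the 6 models, with the mean and SD of each group as a bar and whiskers, GFP-positive, GFP-negative and control or contralateral from left to right. Apoc4 is at 0 in all libraries of 5 of the 6 control or contralateral groups, while Apoc2 is above 0 in most of them, and in 5xFAD mice its GFP-negative and control libraries overlap.

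The mix of the 4 transcripts changed with the model. Set against 1000 TPM of Apoe in the same library, Apoc2 came to 4.95 to 8.22 TPM in GFP-positive microglia of glioma, and to 0.18 to 0.38 TPM in those of 5xFAD mice and 0.34 to 0.40 TPM in those of cuprizone mice. Apoc1 came to 1.97 to 2.71 TPM in GFP-positive microglia of the P6 stroke and to 0.06 to 0.26 TPM in those of 5xFAD mice. Apoc4 came to 0.57 to 1.16 TPM in GFP-positive microglia of 5xFAD mice and to 0.09 to 0.25 TPM in those of glioma. By the mean of GFP-positive libraries, glioma held the most Apoc2 for its Apoe, the P6 stroke the most Apoc1 and 5xFAD mice the most Apoc4. The Apoc2 libraries of glioma stood clear of all other GFP-positive groups, while those of the P28 stroke overlapped the P6 stroke for Apoc1 (0.34 to 2.24 TPM) and 5xFAD mice for Apoc4 (0.17 to 0.64 TPM). In glioma the GFP-negative microglia had 4.95 to 8.58 TPM of Apoc2 on that scale, which overlapped the GFP-positive ones. These ratios compare tables that were normalised separately, but a ratio within a library does not depend on that scale.

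Tomm40, whose gene lies next to Apoe on the upstream side, passed the test between the gates in 1 of the 6 models. It made 70.6, 72.5 and 79.4 TPM in GFP-positive libraries of the cuprizone mice, 114, 105 and 108 TPM in GFP-negative libraries, and 77.5, 80.5, 100.7 and 69.6 TPM in controls. The GFP-negative libraries were the high ones, and GFP-positive and control libraries overlapped. The difference between the gates was called at -0.55 (SE 0.15, limma adjusted p = 0.0333), but it was not called without any 1 GFP-positive or GFP-negative library (-0.60 to -0.52, adjusted p = 0.058 to 0.103) or without a trend (adjusted p = 0.101). Median-of-ratios rescaling left -0.26 (limma adjusted p = 0.449), and taking Apoe out of the total left -0.40 (adjusted p = 0.145). The median of all genes differed by -0.25 in that comparison. Tomm40 averaged 47.2 to 81.5 TPM in GFP-positive and 43.1 to 79.9 TPM in GFP-negative microglia in the other 5 models. It averaged 56.3 to 80.8 TPM in their control or contralateral microglia, and its differences between the gates lay between -0.08 and 0.34. Median-of-ratios rescaling gave calls in GFP-positive against control microglia that were absent before it. These were in 5xFAD mice (0.78, limma adjusted p = 0.00215) and glioma (0.59, limma adjusted p = 0.00112).

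Clptm1 varied widely between libraries. In the P6 stroke it made 107, 202, 193 and 159 TPM in GFP-positive libraries, 33.0, 56.9, 88.6 and 114 TPM in GFP-negative libraries, and 46.4, 86.9, 135 and 146 TPM on the contralateral side. The groups overlapped, and the difference between the gates did not pass (1.27, SE 0.39, limma adjusted p = 0.082), though it was called with a sex term (adjusted p = 0.0233) and without GFP-positive library 1 (1.46, adjusted p = 0.0462). Between the gates of the other models its differences ran from -0.65 in the cuprizone mice to 0.53 in the P28 stroke, with limma adjusted p-values of 0.117 to 0.91. Those ends were called without 1 library each, without control library 3 in the cuprizone mice (limma adjusted p = 0.0339) and without GFP-negative library 4 in the P28 stroke (0.71, limma adjusted p = 0.0459). Median-of-ratios rescaling raised the P28 difference to 0.86, which was called (limma adjusted p = 0.0314). With that rescaling Clptm1 was also called in GFP-positive microglia of that stroke against the contralateral side (0.94, limma adjusted p = 0.0147). In glioma it was lower in GFP-negative microglia, at 26.8, 34.2, 54.0 and 61.9 TPM, against 55.0, 77.0, 77.4 and 100 TPM in controls (-0.84, SE 0.32, limma adjusted p = 0.0402). That call was lost under median-of-ratios rescaling (-0.42, limma adjusted p = 0.314), with no filter (0.0886), without a trend (0.0569) and without control library 2, 3 or 4, GFP-negative library 1 or 2, or GFP-positive library 2 or 3 (-0.84 to -0.63, adjusted p = 0.0505 to 0.123).

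Nectin2 went against Apoe in the cuprizone mice. It made 20.7, 17.98 and 21.8 TPM in GFP-positive libraries, 44.0, 46.2 and 34.3 TPM in GFP-negative libraries, and 40.8, 38.9, 41.7 and 57.6 TPM in controls. All GFP-positive libraries lay below all others. Of all tested genes in that model, 22.7% lay wholly below the GFP-negative libraries and 22.7% wholly below the controls. The difference of Nectin2 was -0.998 against GFP-negative microglia (SE 0.21, limma adjusted p = 0.00812) and -1.10 against controls (SE 0.19, limma adjusted p = 0.00152). Median-of-ratios rescaling left -0.72 against GFP-negative microglia (limma adjusted p = 0.061). In 5xFAD mice the direction was the same without a call, at 20.7, 24.2, 24.0 and 20.8 TPM in GFP-positive libraries, 27.6, 31.2, 31.3 and 40.3 TPM in GFP-negative libraries, and 14.9, 55.8, 25.5 and 33.6 TPM in controls (-0.51, SE 0.30, limma adjusted p = 0.336). In the P28 stroke the difference between the gates was 0.19 (SE 0.14, limma adjusted p = 0.324), and 0.52 after median-of-ratios rescaling, which was called (adjusted p = 0.0269). With that rescaling Nectin2 was also called in GFP-positive against control microglia of EAE (0.76, limma adjusted p = 0.00878). It rose in EAE in GFP-negative against control microglia (0.52, SE 0.16, limma adjusted p = 0.035), a call that was lost without any 1 of 8 of the 9 libraries, GFP-negative library 1 being the exception (0.41 to 0.58, adjusted p = 0.0505 to 0.113), and also with 2 groups in the fit (0.0776) or without a trend (0.0575). Against the contralateral side it rose in the P28 stroke in GFP-positive microglia (0.43, SE 0.14, limma adjusted p = 0.0316), a call lost without contralateral library 1, 2 or 3 or GFP-positive library 1 or 4 (0.34 to 0.43, adjusted p = 0.0548 to 0.0965), with no filter (0.0532) or with 2 groups in the fit (0.0505).

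Bcl3 was low and was called in glioma alone. It made 10.7, 9.85, 8.76 and 14.8 TPM in GFP-positive libraries there, 10.3, 14.9, 27.2 and 23.2 TPM in GFP-negative libraries, and 1.43, 3.89, 3.13 and 4.79 TPM in controls. Both gates lay above all controls and overlapped each other. It rose by 2.19 in GFP-negative (SE 0.33, limma adjusted p = 0.000148) and by 1.53 in GFP-positive microglia (SE 0.33, limma adjusted p = 0.00118) against controls. Elsewhere it averaged 2.29 to 4.68 TPM in GFP-positive and 1.22 to 4.27 TPM in GFP-negative microglia. Control or contralateral microglia averaged 1.31 to 4.07 TPM. After median-of-ratios rescaling Bcl3 was called in GFP-positive against control microglia of EAE (1.41, limma adjusted p = 0.0437). In EAE GFP-negative microglia differed from controls by 1.21 (SE 0.42, limma adjusted p = 0.0518), which passed without GFP-positive library 1 or 2 (adjusted p = 0.0292 and 0.044), after median-of-ratios rescaling (1.55, adjusted p = 0.0349), with a pseudocount of 0.1 (1.69, adjusted p = 0.0474) and with 2 groups in the fit (adjusted p = 0.0387).

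**Figure D4:**
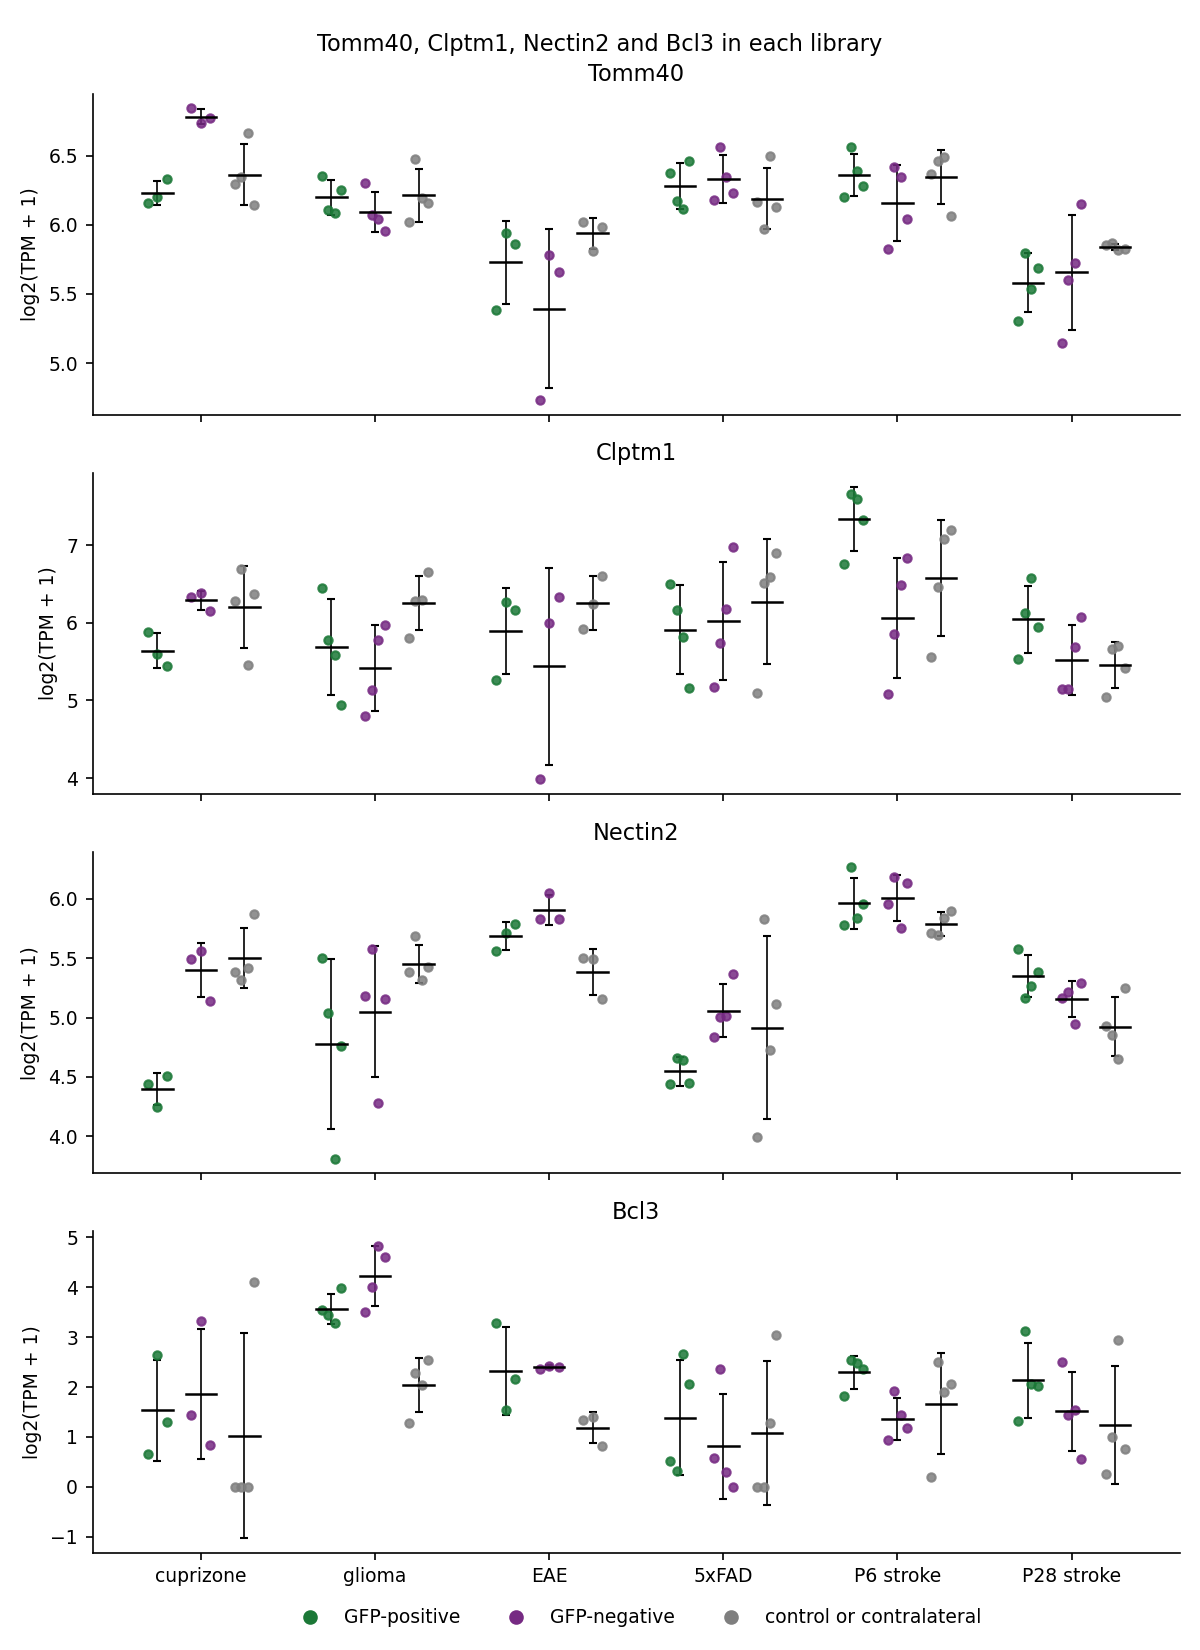
Tomm40, Clptm1, Nectin2 and Bcl3 as log2(TPM + 1) in each library (points) of the 6 models, with the mean and SD of each group as a bar and whiskers, GFP-positive, GFP-negative and control or contralateral from left to right. In the cuprizone mice the GFP-positive libraries of Nectin2 (17.98 to 21.8 TPM) lie below the other 2 groups, and in glioma both GFP groups of Bcl3 lie above the controls.

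The size of the step between the gates differed between models for the apolipoprotein genes. By Xist and Y-linked transcripts, the GFP groups were female in 5xFAD mice and male in the cuprizone mice, glioma, EAE and the P28 stroke. Those of the P6 stroke held 2 female and 2 male libraries each. Where models differ in age or sex as well as in disease, these cannot be told apart. In a joint limma fit over the 11301 genes tested in all 6 tables, an F test of the 6 differences called Apoe (adjusted p = 1.35e-12), Apoc1 (adjusted p = 2.78e-06), Apoc4 (adjusted p = 0.000195) and Apoc2 (adjusted p = 0.00403), where it called 19.6% of all genes. It did not call Nectin2 (limma adjusted p = 0.105), Clptm1 (adjusted p = 0.147), Tomm40 (adjusted p = 0.157) or Bcl3 (adjusted p = 0.52). Nectin2 was called without glioma GFP-positive library 1 or 3 or GFP-negative library 3 (limma adjusted p = 0.0371 to 0.0461). For Apoe, the step in the cuprizone mice exceeded that in glioma by 3.08 (SE 0.34, limma adjusted p = 1.68e-08), in EAE by 3.14 (SE 0.38, adjusted p = 1.32e-07), in 5xFAD mice by 2.63 (SE 0.40, adjusted p = 1.35e-05) and in the P6 stroke by 3.25 (SE 0.32, adjusted p = 1.2e-09). The step in the P28 stroke also exceeded each of these 4, by 1.69 (5xFAD, SE 0.34, limma adjusted p = 0.00111) to 2.31 (P6 stroke, SE 0.24, adjusted p = 6.86e-09). The cuprizone mice and the P28 stroke were not told apart by the test (0.94, SE 0.33, limma adjusted p = 0.0952), nor were the 4 smaller steps from each other, whose differences lay between -0.51 and 0.62. The same cuprizone excess was called for Apoc4 over glioma, EAE, 5xFAD mice and the P6 stroke (2.81 to 3.41, limma adjusted p = 0.00024 to 0.0203). Its GFP-negative mean was 0.08 TPM in the cuprizone mice, 0.785 TPM in glioma and 0.99 TPM in the P6 stroke. Where GFP-negative groups of Apoc1 or Apoc4 are at or near 0, the step follows the GFP-positive level and is not a fold. For Nectin2 the cuprizone mice and the P28 stroke differed by -1.19 (SE 0.35, limma adjusted p = 0.0405).

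Genes farther along the chromosome showed no common direction. Of 30 other annotated genes whose start lies within 250 kb of that of Apoe, 8 to 13 were tested per table. Between the gates they gave 3 calls upward and 3 downward, and their median difference lay between -0.37 and 0.30. Downward were Mark4, a microtubule-affinity kinase, in the cuprizone mice (3.86 ± 2.07 TPM in GFP-positive microglia against 11.9 ± 3.23 TPM in GFP-negative microglia, SD, n = 3 each; -1.48, SE 0.42, limma adjusted p = 0.0396), Gemin7, a component of the SMN complex, in the same mice (-0.60, SE 0.16, limma adjusted p = 0.0327), and Relb in glioma. Upward were Gemin7 (0.51, SE 0.13) and Bloc1s3, a subunit of a complex for lysosome-related organelles (1.17, SE 0.30), both in the P6 stroke with a limma adjusted p of 0.0489, and Relb in the P28 stroke. Relb, an NF-kB subunit, lies on the far side of Clptm1 from Apoe. It made 53.3 ± 8.40 TPM in GFP-positive, 86.5 ± 16.1 TPM in GFP-negative and 33.3 ± 6.13 TPM in control microglia of glioma (SD, n = 4 each), so that, as with Bcl3, the GFP-negative cells held the highest mean.

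**Figure D5:**
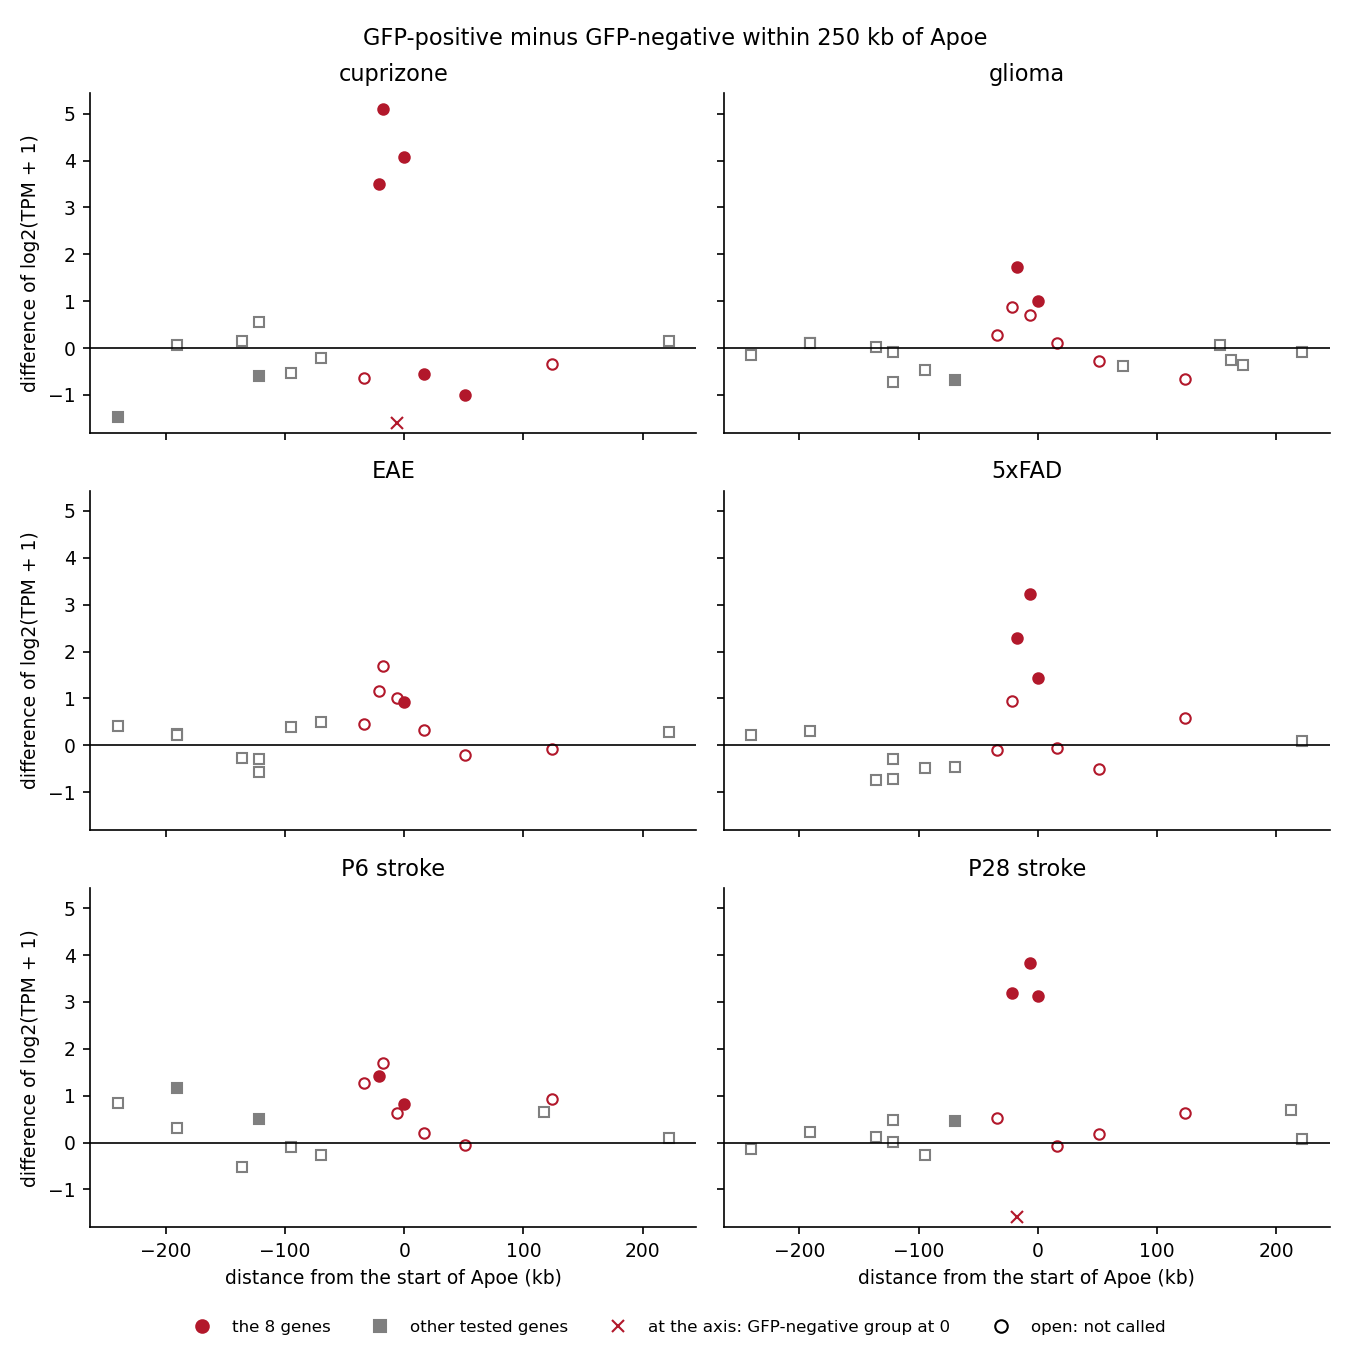
Difference of mean log2(TPM + 1), GFP-positive minus GFP-negative, for each tested gene against the distance of its start from that of Apoe in kb, 1 panel per model, with the 8 genes as circles and others as squares, filled where limma's adjusted p was under 0.05. In the cuprizone mice and the P28 stroke the values above 3 belong to the apolipoprotein genes at -21.2 to 0 kb, while Tomm40 at 16.2 kb and Clptm1 at -34.2 kb lie below 0.6.

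The 18 group means of Apoe, centred on each table, were compared with those of 11300 other genes as a description. Among the 6 genes most like it were Rab7b (Pearson's r = 0.992), a small GTPase of the endosomal system, Fabp5 (0.987), a fatty acid binding protein, Lyz2 (0.986), lysozyme, Lilrb4a (0.981), an inhibitory receptor, and Clec7a (0.98), the receptor dectin-1. Within the cluster Apoc4 ranked 49 (r = 0.944), Apoc1 162 (0.906) and Apoc2 188 (0.899), and Bcl3 ranked 826 (0.63). Clptm1 (-0.30), Nectin2 (-0.35) and Tomm40 (-0.43) had negative values, at ranks 3104, 3326 and 3719. The most negative were Bid (-0.974), Zfp868 (-0.972) and Etfdh (-0.971). The points share libraries within each model, and each table has 3 of them. Rab7b averaged 95.6 TPM in GFP-positive, 9.17 TPM in GFP-negative and 3.67 TPM in control microglia of the cuprizone mice, while in 5xFAD mice it averaged 82.2, 43.0 and 1.86 TPM in these 3 groups. Its wider step was between the gates in the cuprizone mice and between GFP-negative and control microglia in 5xFAD mice. Rab7b was picked for its likeness to Apoe over these same means, so the steps it shares with Apoe are no separate result.

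Genes that work with the apolipoproteins were counted from lists. Of 10 enzymes and carriers of lipoprotein and neutral lipid handling, 23 of 54 comparisons between the gates rose and 2 fell. Lpl, the lipase that Apoc2 activates, rose in 5 models, and in the cuprizone mice it made 912 ± 57.6 TPM in GFP-positive microglia against 94.5 ± 12.2 TPM in GFP-negative microglia (SD, n = 3 each; 3.26, SE 0.50, limma adjusted p = 0.00121). Ch25h, which makes 25-hydroxycholesterol, rose there by 3.94 (SE 0.45, limma adjusted p = 0.000137), and in glioma it was the one gene of this list to pass (300 ± 18.6 TPM in GFP-positive microglia against 84.6 ± 38.8 TPM in GFP-negative microglia, SD, n = 4 each; 1.97, SE 0.45, limma adjusted p = 0.0218). Of 12 lipoprotein receptors and their helpers, 10 of 60 comparisons rose and 4 fell, with Lrpap1, the chaperone of LDL receptor family members, higher in 4 models and Sort1, a sorting receptor, lower in glioma, 5xFAD mice and the P28 stroke. Of 10 genes of lipid efflux, 7 of 49 rose and 2 fell, among them Npc2, which hands cholesterol out of lysosomes, and Tspo in the cuprizone mice. Abcg1, a lipid exporter, fell in 5xFAD mice (-0.46, SE 0.10, limma adjusted p = 0.00986) and rose in the P28 stroke (0.49, SE 0.12, limma adjusted p = 0.00762).

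In each of the other lists at most 3 comparisons rose. None of the 60 comparisons of 10 genes around liver X receptors and SREBPs rose and 7 fell, among them Mylip and Lpcat3, both known targets of liver X receptors, in the cuprizone mice, 5xFAD mice and the P28 stroke. Mylip in the cuprizone mice differed by -0.72 (SE 0.14, limma adjusted p = 0.00432), where the median of all tested genes was -0.25. The activity of liver X receptors was not tested. Of 12 other apolipoproteins and related genes 14 comparisons could be tested, and the 3 that rose were all Apobec1, the enzyme that edits Apob transcripts. Of 11 NF-kB subunits and inhibitors, 3 of 66 comparisons rose and 12 fell, with Nfkb1 lower in glioma, 5xFAD mice, the cuprizone mice and the P28 stroke. Of 10 subunits of mitochondrial import 1 of 60 rose and 2 fell, and of 9 nectins and their ligands none of 25 rose or fell, while 4 rose in GFP-negative against control microglia of glioma. These lists were chosen with earlier results of these data known. Their counts stand beside 0.688% to 29% of all genes called between the gates, 0.252% to 5.86% upward and 0.437% to 23.2% downward.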

How the data were processed

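Bulk RNA-seq of 2000 sorted microglia per library was analysed for 67 libraries in 6 tables. The 4 hashed single-cell pools were not analysed here. The deposited TPM values were made by the authors with cutadapt 2.10, STAR 2.7.5c and RSEM 1.3.3, per the submitters' processing notes, which name GRCm38. TPM keeps no depth, so the depth per library and the precision it gives are unknown. Whether libraries were counted by strand is not stated.

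Separate fits per table were made in R 4.3.3 using limma 3.58.1, on log2(TPM + 1) with all 3 groups in one fit, a trend on the mean, and Benjamini-Hochberg adjustment over all genes with 1 TPM or more in at least the number of libraries that the smallest group has. Calls are at an adjusted p under 0.05. A joint fit with array weights per table tested differences between models by an F test over 6 contrasts and over 15 pairs of models, adjusted over all genes and pairs. The steps were tested on simulated data. Replicate numbers were not taken to pair samples: the labels do not tie them to animals, and for no pair of groups was every correlation of same-numbered deviations over 0.1. Sex, which the labels used here do not give for the mice, was read from Xist and Y-linked transcripts and entered an alternative fit in the 2 models with both sexes.

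The members, the gene lists and the markers were chosen with earlier results of these data known. Named beyond the 8 genes were the 6 genes most like Apoe (1 of them is not reported here) and the 3 least like it, called genes within 250 kb, and examples of called list genes. Alternatives were a pseudocount of 0.1, no filter and a filter at 5 TPM, median-of-ratios rescaling, rescaling without Apoe, 2 groups per fit, a replicate block, a sex term, no trend, no array weights, and each library left out. Python 3.11.15 drew the figures with matplotlib 3.10.9. Gene positions came from GENCODE M21, in which 53365 of 55413 symbols were found.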

Additional observations from a re-analysis of the deposited data

Results flagged for a closer look

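In 97 sets of 4 libraries, 1 gene in 1 group each, 12 had a library far from the other 3. Chance alone gives about 1 in 20 for values that vary smoothly. That rate does not hold for those of the 12 sets whose other 3 libraries were all at 0, so the count is not set against it. GFP-negative library 4 of glioma was apart for Apoe, at 22525 TPM beside 11401 to 12349 TPM, and for Apoc1, at 46.6 TPM beside 7.78 to 12.9 TPM. Single libraries with Apoc1 stood beside 3 at 0 among the GFP-negative (2.26 TPM) and control (8.12 TPM) libraries of 5xFAD mice and among the controls of cuprizone mice (2.59 TPM). Apoc2 was at 0 in 1 cuprizone control beside 2.42 to 2.67 TPM, and at 1.14 TPM in 1 contralateral library of the P28 stroke beside 0. Apoc4 was at 1.4 TPM in 1 contralateral library of the P6 stroke beside 0. Nectin2 was at 57.6 TPM in 1 cuprizone control beside 38.9 to 41.7 TPM. Bcl3 was at 16.3 TPM in 1 cuprizone control beside 0, at 4.14 TPM in 1 GFP-negative library of 5xFAD mice beside 0 to 0.49 TPM, and at 6.72 TPM in 1 contralateral library of the P28 stroke beside 0.2 to 1.01 TPM.

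The difference between GFP-positive and GFP-negative microglia varied between the 6 models by limma's F test for Apoe (adjusted p = 1.35e-12), Apoc1 (adjusted p = 2.78e-06), Apoc4 (adjusted p = 0.000195) and Apoc2 (adjusted p = 0.00403).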

How the results depend on the processing

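Over the 6 models, 18 of the 48 comparisons of the 8 genes were called between GFP-positive and GFP-negative microglia, with 15 to 20 under the other settings and 16 to 20 with 1 library left out. For GFP-negative microglia against the third group the count was 14 (10 to 15, and 13 to 15), for GFP-positive microglia against it 26 (24 to 32, and 24 to 28), and for differences between models 4 (4 to 6, and 4 to 5). Of 1219 single values under other settings, 30 gained a call, 29 lost one and 1 reversed: Tomm40 in GFP-positive against control microglia of glioma was 0.59 after median-of-ratios rescaling, against -0.01 before (limma adjusted p = 0.00112 and 0.933). That rescaling changed 14 of 152 calls. Of 2144 values with 1 library left out, 25 gained and 57 lost a call. The fits with a replicate block gave 20, 15, 29 and 6 calls for the 4 counts above, though neither the labels nor the correlations show that a replicate number pairs samples. The block called Clptm1 between the gates of both strokes (limma adjusted p = 0.00811 in the P6 stroke and 0.0478 in the P28 stroke). As a hint from the data, same-numbered libraries of the P6 stroke had the same inferred sex in all 3 groups, and every sample correlated best with its own number only between the GFP-negative and contralateral libraries of the P6 stroke (4 of 4). Depth is unknown, so how far counting error limits genes near 0 TPM was not tested. Counts over all genes moved more than 1.5 times under some settings. Between GFP-positive and GFP-negative microglia they were 1313 (lowest 660, without a trend) in cuprizone mice, 965 (406, 2 groups per fit) in glioma, 93 (26, without a trend) in EAE, 1023 (643, without a trend) in 5xFAD mice, 441 (49, no filter) in the P6 stroke and 4154 (2236, median of ratios) in the P28 stroke. For GFP-negative microglia against the third group they were 21 (3), 4099 (1851), 1591 (914), 36 (18) and 34 (2) in all but glioma, and for GFP-positive microglia 2338 (1371), 4025 (2295), 5017 (2601), 409 (71) and 5150 (3072), with the models in that same order and the lowest count under these settings in brackets. With 1 library left out, the counts between GFP-positive and GFP-negative microglia ran from 756 (without GFP-positive library 3) to 1287 in cuprizone mice, 399 (GFP-negative 2) to 992 in glioma, 25 (GFP-positive 3) to 210 in EAE, 623 (GFP-negative 4) to 1087 in 5xFAD mice, 22 (GFP-positive 3) to 1271 in the P6 stroke and 3137 (GFP-positive 2) to 4583 in the P28 stroke. For GFP-negative microglia against the third group they ran from 3 to 31 in cuprizone mice, 2119 to 4648 in EAE, 982 to 1591 in 5xFAD mice, 3 to 43 in the P6 stroke and 1 to 43 in the P28 stroke, and for GFP-positive microglia from 1538 to 2271 in cuprizone mice and 52 to 1160 in the P6 stroke.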
